A study of Homo sapiens with 20 samples.

Results

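The transcriptome of human islet-like organoids (hILOs) lacking ALKBH5 was compared with that of wild-type (WT) hILOs over whole gene programmes, in 4 of the 20 libraries of the series. The members were the 4 hILO libraries by their labels, 2 of WT and 2 of *ALKBH5* knockout (A5-KO) cells, and the genes that averaged 1 TPM or more over them, 17300 of the 60624 identifiers listed. TPM expresses the transcripts of a gene, corrected for length, as a share of the library. Both genotypes came from MEL1, a human embryonic stem cell line that carries GFP in 1 allele of *INS*. A5-KO cells had in addition small insertions or deletions made with CRISPR-Cpf1 and a pair of guide RNAs in the first exon of *ALKBH5*, and they represent 1 of the knockout lines that were made. WT and A5-KO cells passed through the same media: activin A with CHIR99021, then KGF, then retinoic acid, LDN-193189, GDC-0449 and vitamin C, then EGF. Aggregates were then kept in a medium with zinc sulfate, heparin, 616452, T3, LDN-193189, compound E and vitamin C. The labels do not say whether the 2 libraries of a genotype came from separate differentiations, so the p-values measure the spread between these libraries.

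ALKBH5 is an enzyme that removes the N6-methyladenosine (m6A) mark from RNA, and m6A can alter the decay, splicing and translation of the transcripts that carry it. Islets are clusters of hormone-secreting cells that release insulin, glucagon and other peptides from granules. They arise from foregut endoderm, the same germ layer that gives rise to liver, stomach and intestine, and organoids derived from stem cells can hold cells of these neighbouring fates. The comparison asked which of these programmes differed when the demethylase was absent.

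The labels were checked first. *ALKBH5* (chromosome 17, 18183078 to 18209954, plus strand) was at 78.8 and 81.9 TPM in WT against 4.16 and 3.42 TPM in A5-KO, and the groups did not overlap (log2 fold change -4.09, SE 0.11, adjusted p = 0.0021). TPM summed to between 887320 and 924887 over the libraries. Within a genotype the libraries differed by a median of 0.083 (WT) and 0.089 (A5-KO) on the log2 scale over 9466 genes that averaged 10 TPM or more. The islet markers CHGA, NEUROD1, ISL1, INSM1, INS, GCG and SST were above 100 TPM in every library, and PAX6 was between 23.4 and 47.7 TPM. PPY was at 101 and 80.1 TPM in WT against 16.2 and 11.1 TPM in A5-KO. By the limits given below, INS, GCG, SST and PPY were lower in A5-KO and NEUROD1 was higher. CHGA, ISL1, INSM1 and PAX6 did not pass these limits. The liver markers ALB, AFP, TTR, APOA1 and FGB were all above 100 TPM, as were the intestinal markers VIL1, CDH17 and FABP2, whereas CDX2 was between 67.4 and 74.9 TPM and MUC2 at most 1.03 TPM. Of the mesenchymal markers COL1A1, PDGFRA, PDGFRB, THY1 and PRRX1 stayed below 2 TPM, COL3A1 was between 1.53 and 5.397 TPM and TWIST1 between 4.08 and 7.62 TPM. The endothelial markers PECAM1, CDH5 and KDR and the leukocyte marker PTPRC were below 1 TPM, but CD68, a lysosomal protein abundant in macrophages, was between 88.9 and 111 TPM. Its value is uncertain, because 85.6% of its exon bases are shared with other annotated genes. POU5F1 and NANOG were below 0.1 TPM and LIN28A between 3.78 and 5.31 TPM.

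Of the 17300 genes, 707 (4.09%) were lower and 467 (2.7%) higher in A5-KO hILOs at 1.5-fold or more with an adjusted p from limma under 0.05, and the median log2 fold change of all genes was -0.06. In the 6 programmes examined, called members were 33 lower and 3 higher of 217 tested metabolic genes, 14 lower and 38 higher of 129 liver genes, and 10 lower and 7 higher of 58 gut genes. They were 22 lower and 5 higher of 95 extracellular matrix genes, 9 lower and 2 higher of 95 secretory genes, and 16 lower and 4 higher of 90 neuronal genes. Liver was the programme in which higher calls outnumbered lower ones, whereas lower calls outnumbered higher ones in the metabolic, gut, matrix, secretory and neuronal programmes. For gut this turned without WT replicate 1 (2 lower, 4 higher), without WT replicate 2 (1 and 3) and with no limit on the change (12 and 23), and the counts were equal (10 and 10) with median-of-ratios scaling. Neuronal counts turned without WT replicate 1 (2 and 3) and WT replicate 2 (0 and 3), and secretory counts were 2 and 2 without WT replicate 1 and 0 and 1 without WT replicate 2. The smallest two-sided p that an exact permutation of 2 WT and 2 A5-KO libraries allows is 0.333, so every call rests on the spread that limma shares among genes. Leaving out WT replicate 1, WT replicate 2, A5-KO replicate 1 or A5-KO replicate 2 left 88, 72, 166 and 203 lower and 100, 71, 77 and 86 higher genes in all. Of the 122 called genes named by the rule, 70, 77, 58 and 50 lost their call in these 4 fits, none changed direction, and 39 kept it in all 14 alternative fits.

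**Figure D1:**
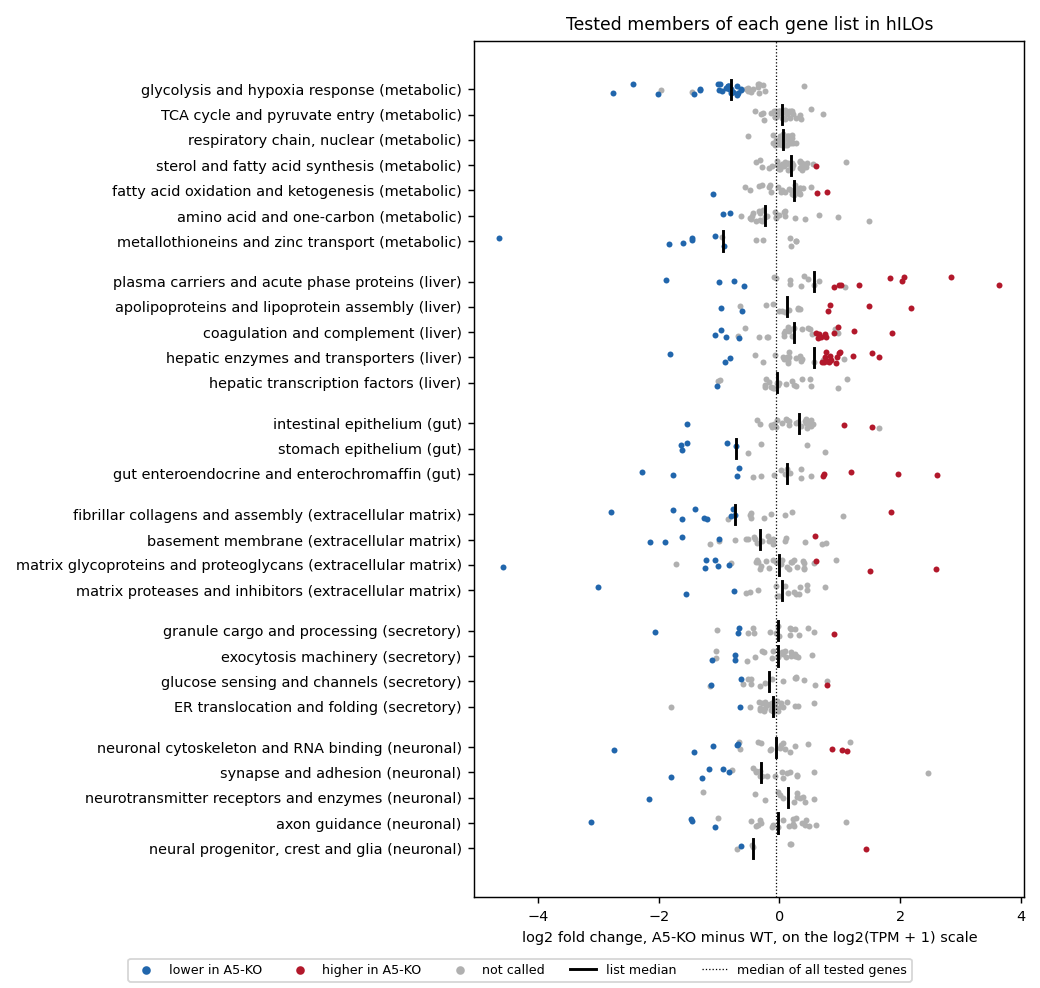
Log2 fold change (A5-KO minus WT, on the log2(TPM + 1) scale) of every tested member of 28 gene lists, with 1 point per gene, coloured by call, a black bar at each list's median and a dotted line at the median of all tested genes (-0.06). Glycolysis and hypoxia genes lay almost wholly left of the line, while plasma carriers and hepatic enzymes had medians near 0.57.

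**Figure D2:**
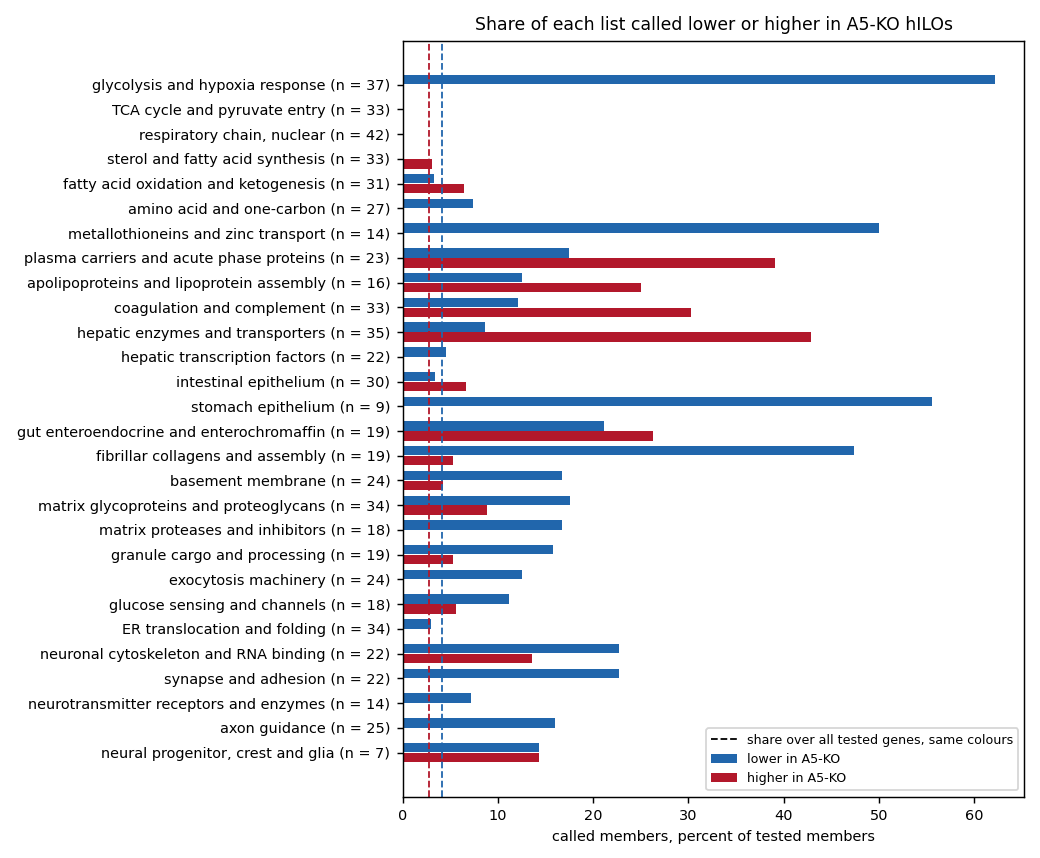
Percent of the tested members of each list called lower (blue) or higher (red) in A5-KO hILOs, with dashed lines at the shares over all tested genes (4.09% lower, 2.7% higher). The tallest lower bars were those of glycolysis and hypoxia (62.2%), stomach (55.6%), metallothioneins (50%) and fibrillar collagens (47.4%), and the tallest higher bar that of hepatic enzymes (42.9%).

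Genes of glycolysis and of the response to low oxygen were lower together in A5-KO hILOs. Of the 37 listed genes, all tested, 23 (62.2%) fell and none rose, against 4.09% lower over all genes. The log2 fold change was negative for 36 of the 37 genes, with a median of -0.81, and the WT and A5-KO libraries did not overlap for 35 of those 36. Over all 17300 tested genes the change was negative for 10017, and the genotypes did not overlap for 6426 of these. Their summed level was 13069 and 12909 TPM in WT against 7418 and 7472 TPM in A5-KO, 42.7% lower. In these bulk libraries, fewer cells of a type and less RNA per cell cannot be told apart, here and for all programmes that follow. Without WT replicate 1, WT replicate 2, A5-KO replicate 1 or A5-KO replicate 2, 11, 10, 11 and 13 members were called lower.

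The falls covered most steps of the pathway from glucose to lactate. *HK1* and *HK2*, the hexokinases that trap glucose in the cell, fell 2.68-fold and 2.11-fold by their mean TPM. *PFKP*, a phosphofructokinase, fell 2.53-fold, and the aldolase gene *ALDOA* 1.78-fold, although 54.2% of the exon bases of *ALDOA* are shared with other annotated genes. *TPI1*, encoding triose phosphate isomerase, was at 1312 and 1300.3 TPM in WT against 731 and 729 TPM in A5-KO (log2 fold change -0.84, SE 0.03, adjusted p = 0.0021). *GAPDH* (chromosome 12, 6534512 to 6538374, plus strand), which is often used as a reference transcript, was at 3664 and 3634 TPM in WT against 2225 and 2235 TPM in A5-KO (log2 fold change -0.71, SE 0.02, adjusted p = 0.0021). The values of *GAPDH* within a genotype differed by far less than those between genotypes. *ENO1*, encoding enolase, was at 2011 and 1970.1 TPM in WT against 1047 and 1009 TPM in A5-KO (log2 fold change -0.95, SE 0.03, adjusted p = 0.0021). *PGK1* fell 1.82-fold and *ENO2* 1.65-fold. *PGAM1* and *PKM* had adjusted p-values of 0.0054 and 0.0099, but their changes of -0.55 and -0.53 on the log2 scale did not reach 1.5-fold.

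Lactate export and hypoxia-responsive genes showed the largest changes of this list. *SLC16A3* (chromosome 17, 82217934 to 82261129, plus strand), the lactate exporter MCT4, was at 160.2 and 139.7 TPM in WT against 22.1 and 20.5 TPM in A5-KO (log2 fold change -2.76, SE 0.09, adjusted p = 0.0021). *DDIT4*, an inhibitor of mTORC1 signalling induced by stress, was at 105 and 92.3 TPM in WT against 22.9 and 24.1 TPM in A5-KO (log2 fold change -2.02, SE 0.08, adjusted p = 0.0028). *HILPDA*, a lipid droplet protein induced by hypoxia, was at 85.2 and 71.1 TPM in WT against 30.2 and 26.8 TPM in A5-KO (log2 fold change -1.42, SE 0.12, adjusted p = 0.0087). For each of these genes both WT libraries lay well above both A5-KO libraries. *CA9*, a carbonic anhydrase widely used as a hypoxia marker and chosen here after its values were seen, was at 6.51 and 6.08 TPM in WT against 0.0632 and 0.729 TPM in A5-KO (log2 fold change -2.43, SE 0.30, adjusted p = 0.019). The mitophagy receptors *BNIP3* and *BNIP3L* fell 1.76-fold and 1.71-fold. *LDHA*, the lactate dehydrogenase subunit that favours lactate formation, was at 718 and 721 TPM in WT against 114 and 295 TPM in A5-KO; the A5-KO libraries disagreed, and the adjusted p was 0.071. *VEGFA*, the angiogenic growth factor, was at 394 and 415 TPM in WT against 298 and 334 TPM in A5-KO, a log2 change of -0.36 that was under the limit of 1.5-fold. *INSIG2* was the member whose libraries overlapped, at 60.3 and 18.02 TPM in WT against 27.7 and 26.5 TPM in A5-KO, and *PDK3* the member with a positive log2 fold change (0.41, adjusted p = 0.20). *SLC16A3*, *DDIT4*, *TPI1*, *GAPDH* and *ENO1* kept their call in all 14 alternative fits, and *HILPDA* lost it without a filter on low values, without WT replicate 1 and without either A5-KO library.

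**Figure D3:**
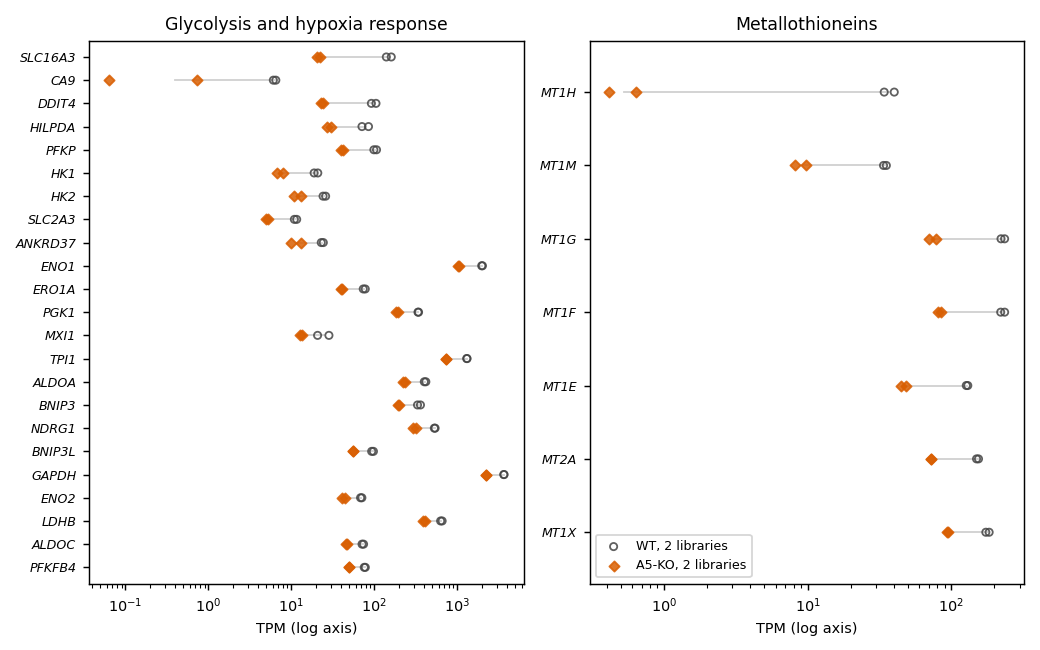
TPM on a log axis in each of the 4 hILO libraries for the called members of the glycolysis and hypoxia list (left, 23 genes) and of the metallothionein list (right, 7 genes), ordered by log2 fold change, with open circles for WT, filled diamonds for A5-KO and a grey line joining the genotype means. Every A5-KO value lay below both WT values of the same gene.

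Hypoxia-inducible factors recognise a short core, ACGTG, and the promoters of this list were searched for it in windows of 300 bases from RefSeq (GRCh38.p14), which run from 250 bases before to 50 bases after each start. The core, on either strand, was present in 7518 of 35116 windows (21.4%) and in at least 1 window of 24.9% of 27305 genes. Of the 37 list genes 32 had a window, and 22 of these held the core, as did 15 of the 19 genes with a window that fell. It was also held by *GPI*, *PFKM*, *LDHA*, *PDK1*, *PDK3*, *PFKFB3* and *INSIG2*, which were not called. The list was chosen for glycolysis and the hypoxia response, so its share could differ from that of all genes by that choice alone. A link between the core and the falls was not tested. The letters CACGTG hold the core on both strands and are also the E-box that other factors bind. A match is a description of the sequence, and binding was not measured. The stretches shown are those of the genes described above, upstream of the start, with the core in capitals and 20 flanking bases where the window allows; they show how the core sits in genes with large falls (SLC16A3, CA9, DDIT4) and in abundant glycolytic genes (GAPDH, TPI1, PGK1). They lie, in the same order, at chr17:82228954-82229011, chr9:35673890-35673927, chr10:72273779-72273823, chr12:6535163-6535208, chr12:6868068-6868104 and chrX:78104026-78104089, all given here 5′ to 3′ on the strand of the gene.
SLC16A3: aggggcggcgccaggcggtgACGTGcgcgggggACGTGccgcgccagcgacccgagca
CA9: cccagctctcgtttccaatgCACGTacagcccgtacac
DDIT4: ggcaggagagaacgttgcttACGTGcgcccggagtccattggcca
GAPDH: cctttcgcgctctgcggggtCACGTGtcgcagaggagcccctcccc
TPI1: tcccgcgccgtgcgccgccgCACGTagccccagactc
PGK1: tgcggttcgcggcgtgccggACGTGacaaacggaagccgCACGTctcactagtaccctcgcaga
SLC16A3 and PGK1 held the core at separate positions within these stretches, and GAPDH held it as CACGTG.

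The energy pathways within mitochondria had no called gene in their 2 lists. None of 33 genes of the tricarboxylic acid cycle and none of 42 nuclear genes of the respiratory chain were called by limma, and 11 genes of each list had an unadjusted p below 0.05 without the limit of 1.5-fold. With A5-KO replicate 1 left out 1 gene of the first list was called lower, and with A5-KO replicate 2 left out 1 gene of the second. The medians were 0.04 and 0.06. The summed level of the respiratory chain list was 13061 and 12781 TPM in WT against 13244 and 13553 TPM in A5-KO. *ATP5F1B*, the catalytic subunit of ATP synthase, was at 895 and 877 TPM in WT against 901 and 878 TPM in A5-KO, and *MDH1*, a malate dehydrogenase, was at 253 and 242 TPM in WT against 255 and 247 TPM in A5-KO. The libraries of the genotypes overlapped for both genes. All 13 protein-coding genes of the mitochondrial genome were listed at 0 in every library, whereas a nuclear copy, *MTCO1P12*, was listed at 3205 and 3322 TPM in WT against 4904 and 4684 TPM in A5-KO, so the mitochondrial transcripts themselves could not be compared.

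Lipid and amino acid metabolism changed in few genes. Of 33 tested genes of sterol and fatty acid synthesis 1 rose (3.03%, near the 2.7% of all genes). This was *IDI1*, an isomerase of the mevalonate pathway, at 75.95 and 92.9 TPM in WT against 127 and 130.2 TPM in A5-KO (log2 fold change 0.61, SE 0.11, adjusted p = 0.038). Of 31 tested genes of fatty acid oxidation 1 fell (3.23%, against 4.09% of all genes) and 2 rose (6.45%, against 2.7%). The gene that fell was *ANGPTL4*, an inhibitor of lipoprotein lipase that is also induced by hypoxia, at 45.9 and 43.2 TPM in WT against 21.4 and 19.01 TPM in A5-KO (log2 fold change -1.10, SE 0.09, adjusted p = 0.0083). The 2 that rose, *CIDEB* and *CPT1B*, share 100% and 66.4% of their exon bases with other annotated genes and are uncertain. Of 27 amino acid genes 2 fell (7.41%, against 4.09% of all genes). *SLC7A5*, the leucine transporter LAT1, and *ODC1*, which starts polyamine synthesis, fell 1.94-fold and 1.78-fold. *IDI1* and *CPT1B* lost their call with any of the 4 libraries left out, and *ANGPTL4* without either WT library, when no amino acid gene was called lower either.

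Metallothioneins, small proteins that bind zinc and copper and are induced by zinc, were lower in A5-KO hILOs. Both genotypes were kept in medium with zinc sulfate, and a part of zinc in the difference was not tested. Of 14 tested genes of metallothioneins and zinc transport 7 (50%, against 4.09% of all genes) fell and none rose. The summed level was 1412 and 1377 TPM in WT against 815 and 810 TPM in A5-KO. The genes that fell were *MT1E*, *MT1F*, *MT1G*, *MT1H*, *MT1M*, *MT1X* and *MT2A*, all metallothioneins. *MT1G* (chromosome 16, 56666730 to 56668065, minus strand) was at 236 and 223 TPM in WT against 70.6 and 78.96 TPM in A5-KO (log2 fold change -1.61, SE 0.07, adjusted p = 0.0034) and *MT1F* at 236 and 222 TPM in WT against 84.6 and 81.5 TPM in A5-KO (log2 fold change -1.45, SE 0.05, adjusted p = 0.0024). *MT2A*, the most widely expressed form, was at 150.4 and 155 TPM in WT against 72.9 and 71.99 TPM in A5-KO (log2 fold change -1.07, SE 0.04, adjusted p = 0.0028). For all 7 genes both A5-KO libraries were below both WT libraries. None of the zinc transporters was called. *SLC30A1*, the zinc exporter that is induced by the same metal-responsive factor, was at 58.1 and 59.96 TPM in WT against 72.1 and 70.9 TPM in A5-KO and *SLC39A14*, a zinc importer, was at 202 and 177 TPM in WT against 218 and 216 TPM in A5-KO. Metallothionein genes are near-identical neighbours on chromosome 16, and reads could have been split among them, so the summed level is firmer than that of any 1 copy. Leaving out any 1 library left between 6 and 8 members lower.

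The metal response element has the core TGCACNC or TGCGCNC, searched on both strands in the same windows. It was present in 29.6% of all windows and in 33.4% of genes, and in 7 of the 8 list genes with a window, 3 of which fell (*MT1H*, *MT1X* and *MT2A*). A link between the element and the falls was not tested. The stretch upstream of MT1X, at chr16:56682300-56682443 on the plus strand, is shown because it holds the element 4 times within 144 bases, marked in capitals.
MT1X: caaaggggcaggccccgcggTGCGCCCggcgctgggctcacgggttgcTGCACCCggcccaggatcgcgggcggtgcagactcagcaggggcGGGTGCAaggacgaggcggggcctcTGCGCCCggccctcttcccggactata

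The liver programme was split, with most called genes higher and a smaller set lower. Over its 5 lists 38 of 129 tested genes rose (29.5%, against 2.7% of all genes) and 14 fell (10.9%, against 4.09%). Leaving out any 1 library left between 12 and 13 higher and between 4 and 7 lower genes. Plasma carriers and acute phase proteins, which hepatocytes secrete into blood, had 9 higher and 4 lower of 23 tested genes, a median of 0.57, and a summed level of 20976 and 20776 TPM in WT against 36628 and 36202 TPM in A5-KO. Much of that sum was *TTR*, the thyroxine and retinol carrier transthyretin, which islet alpha cells also make. *TTR* (chromosome 18, 31557009 to 31598833, plus strand) was at 7527 and 7549.8 TPM in WT against 18674 and 18749 TPM in A5-KO (log2 fold change 1.31, SE 0.02, adjusted p = 0.0011). *ALB*, encoding serum albumin and chosen after its values were seen, was at 934 and 929 TPM in WT against 1913 and 1846 TPM in A5-KO (log2 fold change 1.01, SE 0.03, adjusted p = 0.0021). The ratio of the means was 2.48 for *TTR* and 2.02 for *ALB*, with little spread within a genotype. *AFP*, the fetal counterpart of albumin, was at 5535 and 5732 TPM in WT against 6446 and 6255 TPM in A5-KO, a difference under the limit of 1.5-fold.

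Other carriers differed by more. *ITIH1*, a hyaluronan-binding plasma protein, was at 35.03 and 31.4 TPM in WT against 121 and 120.3 TPM in A5-KO (log2 fold change 1.83, SE 0.07, adjusted p = 0.0026). *GC*, the vitamin D carrier, was at 602 and 298 TPM in WT against 1775 and 1692 TPM in A5-KO (log2 fold change 2.03, SE 0.35, adjusted p = 0.037), and the WT libraries were themselves 2.02-fold apart. The acute phase protein gene *CRP* was at 0.292 and 0.413 TPM in WT against 17.4 and 14.5 TPM in A5-KO and *HAMP*, encoding the iron hormone hepcidin, at 0.427 and 0.119 TPM in WT against 9.499 and 6.79 TPM in A5-KO, both near 0 in WT and below 20 TPM in A5-KO. *TF*, the iron carrier transferrin, was at 1.39 and 1.204 TPM in WT against 8.59 and 8.64 TPM in A5-KO. *HAMP* and *TF* were chosen after their values were seen. The copper carrier *CP* had the opposite direction, at 181 and 188 TPM in WT against 52.4 and 46.7 TPM in A5-KO (log2 fold change -1.88, SE 0.07, adjusted p = 0.0026). With 1 library left out, 4 to 5 genes of this list were called higher and 1 to 2 lower. *CRP*, *ITIH1*, *TTR* and *CP* kept their call in all 14 alternative fits; *GC* lost it without a filter on low values, without a trend in the variance and without either A5-KO library.

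Among apolipoproteins, the protein shell of plasma lipid particles, 4 of 16 tested genes rose (25%, against 2.7% of all genes) and 2 fell (12.5%, against 4.09%). *APOA2* (chromosome 1, 161222292 to 161223631, minus strand), a major protein of high-density lipoprotein, was at 839 and 836 TPM in WT against 3793 and 3810.3 TPM in A5-KO (log2 fold change 2.18, SE 0.02, adjusted p = 0.00053). Its neighbour in function, *APOA1*, was at 3029 and 3141 TPM in WT against 3155 and 2997 TPM in A5-KO, and *APOE* at 4999 and 4915 TPM in WT against 4779 and 4456 TPM in A5-KO. A 4.54-fold difference for *APOA2* thus stood beside levels of *APOA1* that overlapped between genotypes. *APOM*, the sphingosine-1-phosphate carrier, was at 119 and 113 TPM in WT against 329.5 and 322 TPM in A5-KO (log2 fold change 1.48, SE 0.04, adjusted p = 0.0021). *APOH*, a phospholipid-binding plasma protein, rose 1.81-fold. *APOA4*, an intestinal and hepatic apolipoprotein, was at 3669.7 and 3692 TPM in WT against 2416 and 2350.5 TPM in A5-KO (log2 fold change -0.63, SE 0.03, adjusted p = 0.0028); 43.2% of its exon bases lie in other annotated genes, and 4 of the scaling alternatives brought its change under 1.5-fold. *PLTP*, which transfers phospholipids between particles, fell 1.98-fold. With any 1 library left out 2 genes of the list were called higher, and 1 was called lower without either WT library.

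Of 33 tested genes of coagulation and complement 10 rose (30.3%, against 2.7% of all genes) and 4 fell (12.1%, against 4.09%). The 3 chains of fibrinogen, the clot precursor, fell together. *FGB* was at 1362 and 1394 TPM in WT against 737 and 748 TPM in A5-KO (log2 fold change -0.89, SE 0.03, adjusted p = 0.0021). *FGG* was at 714 and 660.0 TPM in WT against 332 and 324 TPM in A5-KO (log2 fold change -1.06, SE 0.05, adjusted p = 0.0035). *FGA*, chosen after its values were seen, was at 81.5 and 81.9 TPM in WT against 51.4 and 49.96 TPM in A5-KO (log2 fold change -0.68, SE 0.05, adjusted p = 0.0069). The ratio of the means was thus 1.86 for *FGB*, 2.09 for *FGG* and 1.61 for *FGA*. The fourth gene that fell was *C1R*, a protease of the first complement complex (1.98-fold). Genes that rose included *SERPIND1* (heparin cofactor), *PROC* (the anticoagulant protein C), *CPB2*, *C8G* and *F13B*, with ratios between 1.58 and 4.85. *FGB* and *FGG* kept their call in all 14 alternative fits, but with any 1 library left out no more than 1 gene of the list was called higher and 2 were called lower.

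Hepatic enzymes and transporters had the largest share of higher calls, 15 of 35 (42.9%, against 2.7% of all genes). Another 3 were lower (8.57%, against 4.09%), and the median was 0.58. Without WT replicate 1, WT replicate 2, A5-KO replicate 1 or A5-KO replicate 2, 4, 5, 5 and 7 members were called higher. *CYP3A4* (chromosome 7, 99756960 to 99784248, minus strand), the main drug-metabolising cytochrome P450 of adult liver and gut, was at 39.3 and 36.8 TPM in WT against 114 and 109 TPM in A5-KO (log2 fold change 1.53, SE 0.06, adjusted p = 0.0026). *ADH1A*, an alcohol dehydrogenase prominent in fetal liver, was at 20.3 and 19.6 TPM in WT against 66.1 and 62.6 TPM in A5-KO (log2 fold change 1.64, SE 0.06, adjusted p = 0.0026). *ALDH1A1*, which makes retinoic acid from retinal, was at 867 and 839 TPM in WT against 1481 and 1473 TPM in A5-KO (log2 fold change 0.79, SE 0.03, adjusted p = 0.0025). Each of these kept its call in all 14 alternative fits. Amino acid catabolism was represented by *TDO2*, which opens the ring of tryptophan and rose 1.82-fold. *CYP2C8*, *CYP2C18* and *CYP2C19* rose by 1.82 to 2.22-fold, but they are close paralogs and *CYP2C18* and *CYP2C19* share 40.3% and 31% of their exon bases with other genes.

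The 3 enzymes that fell included *G6PC1* and *PCK1* of gluconeogenesis, the making of new glucose. *G6PC1*, which releases free glucose at its last step, was at 14.5 and 13.1 TPM in WT against 3.03 and 3.44 TPM in A5-KO (log2 fold change -1.81, SE 0.13, adjusted p = 0.0071). *PCK1*, which acts early in the same pathway, was at 9.13 and 8.65 TPM in WT against 4.99 and 3.64 TPM in A5-KO (log2 fold change -0.91, SE 0.17, adjusted p = 0.047) and was chosen after its values were seen. *CPS1*, the first enzyme of the urea cycle, was at 40.3 and 50.8 TPM in WT against 26.9 and 23.6 TPM in A5-KO (log2 fold change -0.82, SE 0.14, adjusted p = 0.037). *CPS1* lost its call with any library left out and in the fit with a replicate block, whereas *G6PC1* kept it without A5-KO replicate 2. Of 22 tested hepatic transcription factors 1 was called, lower in A5-KO (4.55%, near the 4.09% of all genes). *HNF4A*, a central regulator of hepatocyte genes, was at 60.6 and 72.5 TPM in WT against 80.3 and 72.4 TPM in A5-KO. *CEBPA* was at 238 and 239 TPM in WT against 217 and 209 TPM in A5-KO, and 43.9% of its exon bases are shared with other genes. The gene called was *HHEX*, a homeobox factor of liver and delta cells, at 5.58 and 6.77 TPM in WT against 2.41 and 2.61 TPM in A5-KO (log2 fold change -1.03, SE 0.16, adjusted p = 0.032), and with any 1 library left out no gene of that list was called.

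**Figure D4:**
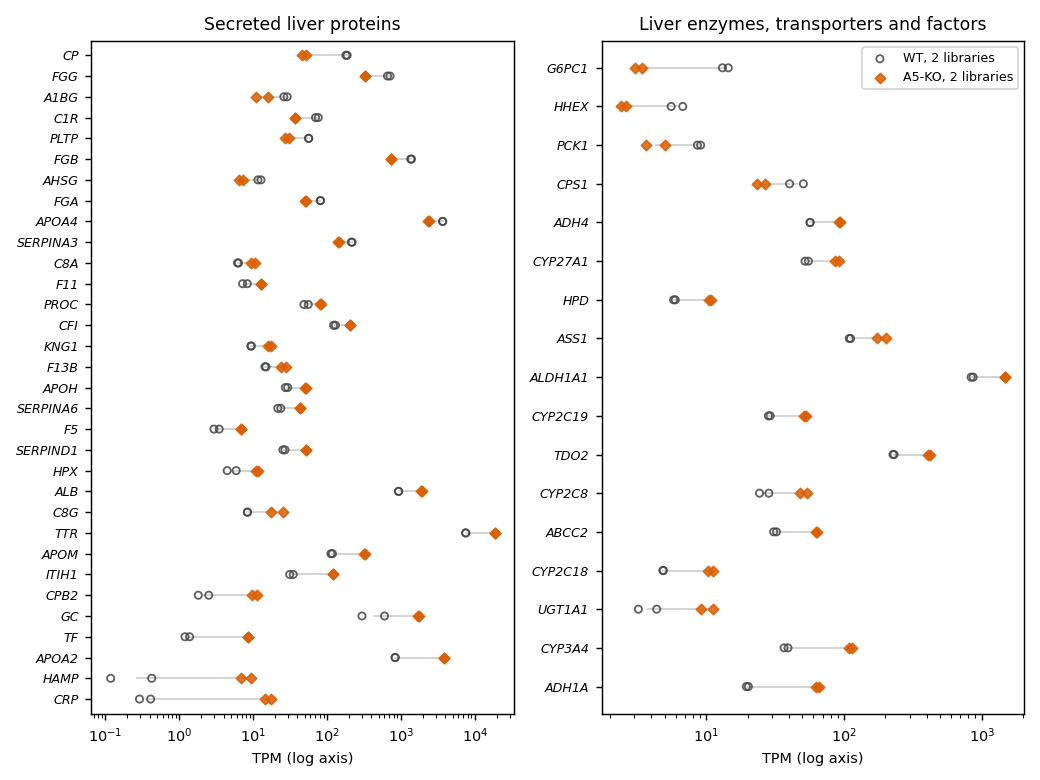
TPM on a log axis in each hILO library for called liver genes, secreted proteins on the left (32 genes drawn) and enzymes, transporters and transcription factors on the right (17 genes drawn), ordered by log2 fold change, with open circles for WT and filled diamonds for A5-KO. Genes lower in A5-KO (top of each panel) include the fibrinogen chains and *G6PC1*, and genes higher in A5-KO (bottom) *APOA2*, *ITIH1*, *CYP3A4* and *ADH1A*.

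Calls among gut genes differed by list, with 5 lower and none higher in the stomach list, 1 lower and 2 higher in the intestinal list, and 4 lower and 5 higher among genes of gut hormone cells. Of 18 stomach genes 9 were tested, 5 (55.6%, against 4.09% of all genes) fell and none rose. The list summed to 569 and 565 TPM in WT against 304 and 302 TPM in A5-KO. *TFF1* (chromosome 21, 42362282 to 42366535, minus strand), a secreted trefoil peptide of gastric surface cells, was at 219 and 216 TPM in WT against 78.5 and 71.6 TPM in A5-KO (log2 fold change -1.52, SE 0.06, adjusted p = 0.0026). *SOX2*, the transcription factor of foregut and stomach, was at 15.7 and 14.7 TPM in WT against 4.32 and 4.18 TPM in A5-KO (log2 fold change -1.63, SE 0.11, adjusted p = 0.0065). *VSIG1*, an adhesion protein of gastric epithelium, was at 10.8 and 9.16 TPM in WT against 2.55 and 2.63 TPM in A5-KO (log2 fold change -1.61, SE 0.15, adjusted p = 0.011). *PSCA* and *TFF2* fell 1.84-fold and 1.64-fold. The mature stomach markers *MUC5AC*, *MUC6*, *GKN1*, *GKN2* and *ATP4A* were below 0.2 TPM in every library, and *CLDN18* was at 8.17 and 9.52 TPM in WT against 6.02 and 5.68 TPM in A5-KO without a call. Tested stomach genes with a positive log2 fold change were *CTSE*, a gastric protease (0.45, adjusted p = 0.032), and *CAPN8*, a calpain (0.76, adjusted p = 0.066), neither of them called. Without WT replicate 1, WT replicate 2, A5-KO replicate 1 or A5-KO replicate 2, 1, 1, 2 and 4 of the 5 genes were called, and *TFF1* was called in all 4 fits.

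Of 30 tested intestinal genes 2 rose (6.67%, against 2.7% of all genes) and 1 fell (3.33%, against 4.09%). A positive log2 fold change was found for 22 of the 30, against 7283 of the 17300 tested genes, and the median was 0.33. *SI*, the sucrase-isomaltase of the brush border, was at 21.8 and 22.4 TPM in WT against 65.9 and 66.03 TPM in A5-KO (log2 fold change 1.53, SE 0.06, adjusted p = 0.0025). *CLCA1*, a secreted goblet cell protein, was at 3.89 and 3.78 TPM in WT against 9.03 and 9.18 TPM in A5-KO (log2 fold change 1.06, SE 0.12, adjusted p = 0.017). *FABP2*, *VIL1*, *CDH17*, *ANPEP* and *MUC13* had adjusted p-values between 0.0049 and 0.011 with log2 fold changes between 0.35 and 0.53, under the limit of 1.5-fold. *CDX2*, the intestinal master regulator, was at 74.9 and 73.7 TPM in WT against 71.3 and 67.4 TPM in A5-KO. *ASCL2*, a transcription factor of intestinal stem cells, was at 16.9 and 16.6 TPM in WT against 4.55 and 5.72 TPM in A5-KO (log2 fold change -1.54, SE 0.14, adjusted p = 0.01), whereas the stem cell marker *LGR5* was below 0.2 TPM in every library. The brush border genes *MEP1A*, *SLC26A3* and *SLC15A1* had log2 fold changes of -0.12, -0.06 and -0.04. With 1 library left out, 1 to 2 genes were called higher, and 1 lower gene was called when A5-KO replicate 2 was left out and none otherwise.

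Among 19 tested genes of gut hormone and serotonin cells, 5 rose (26.3%, against 2.7% of all genes) and 4 fell (21.1%, against 4.09%). *SCT* (chromosome 11, 626309 to 627181, minus strand), encoding secretin, was at 111 and 117 TPM in WT against 448 and 447 TPM in A5-KO (log2 fold change 1.96, SE 0.04, adjusted p = 0.0019). *GAST*, encoding gastrin, was the most abundant gene of the list, at 2663 and 2679 TPM in WT against 4459 and 4403 TPM in A5-KO (log2 fold change 0.73, SE 0.02, adjusted p = 0.0021). *MLN*, encoding motilin, was at 15.9 and 19.5 TPM in WT against 42.7 and 40.3 TPM in A5-KO (log2 fold change 1.19, SE 0.12, adjusted p = 0.012). *CCK*, encoding cholecystokinin and chosen after its values were seen, was at 0.285 and 0.104 TPM in WT against 5.99 and 6.65 TPM in A5-KO (log2 fold change 2.62, SE 0.19, adjusted p = 0.0075). *CHRNA3*, a nicotinic receptor subunit, was also called, at 51.9 and 53.5 TPM in WT against 96.05 and 79.2 TPM in A5-KO (log2 fold change 0.72, SE 0.11, adjusted p = 0.027). Of the genes that fell, *TAC1*, *TPH1* and *SLC18A1* are known from enterochromaffin cells, the serotonin-producing cells of the gut. The 4 genes were *TAC1*, the precursor of substance P, at 33.3 and 33.6 TPM in WT against 8.74 and 9.56 TPM in A5-KO (log2 fold change -1.76, SE 0.09, adjusted p = 0.0036), *TPH1*, the enzyme that limits serotonin synthesis, at 220.3 and 227 TPM in WT against 143 and 138 TPM in A5-KO (log2 fold change -0.67, SE 0.04, adjusted p = 0.0056), *SLC18A1*, a vesicular monoamine transporter, at 44.8 and 36.7 TPM in WT against 26.04 and 23.2 TPM in A5-KO (log2 fold change -0.70, SE 0.13, adjusted p = 0.04) and *CXCL14*, a chemokine, at 9.32 and 9.36 TPM in WT against 1.01 and 1.24 TPM in A5-KO (log2 fold change -2.28, SE 0.15, adjusted p = 0.0063). *DDC*, which acts after *TPH1*, was at 458 and 434 TPM in WT against 429 and 409 TPM in A5-KO, and *FEV*, the serotonergic transcription factor, at 468 and 494 TPM in WT against 407 and 375 TPM in A5-KO, neither of them called. Other genes listed for these cells, *SLC18A2*, *LMX1A* and *TRPA1*, had log2 fold changes of 0.03, 0.097 and 0.36 without a call. *SCT* and *GAST* kept their call in all 14 alternative fits, *TAC1* lost it without WT replicate 2, *TPH1* without either WT library, and *SLC18A1* and *MLN* with any 1 of the 4 libraries left out.

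The extracellular matrix programme fell mainly in the enzymes and chains that build collagen. Of 19 tested genes of fibrillar collagens and their assembly 9 (47.4%, against 4.09% of all genes) fell and 1 (5.26%, against 2.7%) rose. The median was -0.74 and the sum 1175 and 1197 TPM in WT against 848 and 838 TPM in A5-KO. *COL2A1*, the collagen of cartilage and notochord, was the most abundant chain that fell, at 119 and 108 TPM in WT against 48.3 and 45.7 TPM in A5-KO (log2 fold change -1.25, SE 0.07, adjusted p = 0.0052). The cross-linking enzymes fell together. *LOX*, lysyl oxidase, was at 22.8 and 23.8 TPM in WT against 6.55 and 5.72 TPM in A5-KO (log2 fold change -1.77, SE 0.11, adjusted p = 0.0056), and *LOXL1* at 10.7 and 11.7 TPM in WT against 3.03 and 2.92 TPM in A5-KO (log2 fold change -1.62, SE 0.13, adjusted p = 0.0082). *LOXL2*, chosen after its values were seen, was at 6.996 and 6.74 TPM in WT against 0.114 and 0.145 TPM in A5-KO (log2 fold change -2.80, SE 0.17, adjusted p = 0.0057). The collagen hydroxylases *P4HA1* and *PLOD2*, which are themselves known targets of hypoxia signalling, fell 2.33-fold and 1.71-fold. The gene that rose, *COL1A2*, was at 5.98 and 2.65 TPM in WT against 19.03 and 15.6 TPM in A5-KO (log2 fold change 1.85, SE 0.35, adjusted p = 0.044), while its partner *COL1A1* was below 1.5 TPM in every library. Without WT replicate 1, WT replicate 2, A5-KO replicate 1 or A5-KO replicate 2, 2, 2, 5 and 5 members of this list were called lower, and *COL2A1* was called in all of them.

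Basement membrane genes, which encode the sheet beneath epithelia, had 4 lower (16.7%, against 4.09% of all genes) and 1 higher (4.17%, against 2.7%) of 24 tested. The collagen IV chains *COL4A1*, *COL4A2* and *COL4A6* fell 4.37-fold, 6.19-fold and 5.75-fold, from levels of at most 12 TPM in WT. *LAMA1*, a laminin chain of early embryos, was at 38.7 and 39.1 TPM in WT against 18.5 and 19.3 TPM in A5-KO (log2 fold change -1.005, SE 0.07, adjusted p = 0.0062). The abundant members *LAMB1* and *COL18A1* were at 130.4 and 121 TPM in WT against 121 and 107 TPM in A5-KO and at 179.5 and 186 TPM in WT against 149.7 and 148 TPM in A5-KO, with no call. The 4 genes that fell were less abundant in WT than these members. Without WT replicate 1, WT replicate 2, A5-KO replicate 1 or A5-KO replicate 2, 0, 0, 1 and 3 genes of the list were called lower.

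Among matrix glycoproteins and proteoglycans 6 of 34 tested genes fell (17.6%, against 4.09% of all genes) and 3 rose (8.82%, against 2.7%). *FN1* (chromosome 2, 215360440 to 215436073, minus strand), fibronectin, was at 273 and 279 TPM in WT against 119 and 118 TPM in A5-KO (log2 fold change -1.21, SE 0.04, adjusted p = 0.0021). *GPC3*, a heparan sulfate proteoglycan of fetal liver, was at 463 and 461 TPM in WT against 227 and 214 TPM in A5-KO (log2 fold change -1.06, SE 0.04, adjusted p = 0.0026). *FN1* and *GPC3* kept their call in all 14 alternative fits. The genes that rose, *POSTN*, *LUM* and *HAPLN1*, encode periostin, lumican and a hyaluronan link protein. *POSTN* was at 3.79 and 0.924 TPM in WT against 17.6 and 16.9 TPM in A5-KO, and the WT libraries differed 4.10-fold. *LUM* was at 0.951 and 0.854 TPM in WT against 4.71 and 4.05 TPM in A5-KO and *HAPLN1* at 21.2 and 20.1 TPM in WT against 31.9 and 31.9 TPM in A5-KO. Of 18 tested proteases and inhibitors 3 fell (16.7%, against 4.09% of all genes) and none rose. Among them *PLAUR*, the urokinase receptor, was at 11.8 and 11.9 TPM in WT against 2.41 and 4.66 TPM in A5-KO (log2 fold change -1.54, SE 0.28, adjusted p = 0.039). *MMP1*, a collagenase, was at 378 and 384 TPM in WT against 229 and 221 TPM in A5-KO (log2 fold change -0.76, SE 0.04, adjusted p = 0.0036). With 1 library left out, 3 to 4 glycoprotein genes were called lower and 0 to 1 higher, and 1 to 3 protease genes lower; the lower calls were fewest without either WT library. Of 23 genes of the mesenchyme and muscle list 6 were tested, and 2 fell, *VIM* and *TAGLN* (33.3%, against 4.09% of all genes). Of their exon bases, 24.6% and 47.8% are shared with other annotated genes. The other 4 (*TWIST1*, *ACTA2*, *MYL9* and *RGS5*) had positive log2 fold changes without a call, with a median of 0.27 over the list. The list summed to 364 and 366 TPM in WT against 260 and 236 TPM in A5-KO, and its part in the matrix differences was not tested. Most of that sum in WT was *VIM*, encoding vimentin, which many cell types express, at 253 and 254 TPM in WT against 121 and 121 TPM in A5-KO (log2 fold change -1.07, SE 0.03, adjusted p = 0.0021), and the defining mesenchymal markers PDGFRA, PDGFRB and THY1 were below 0.6 TPM.

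**Figure D5:**
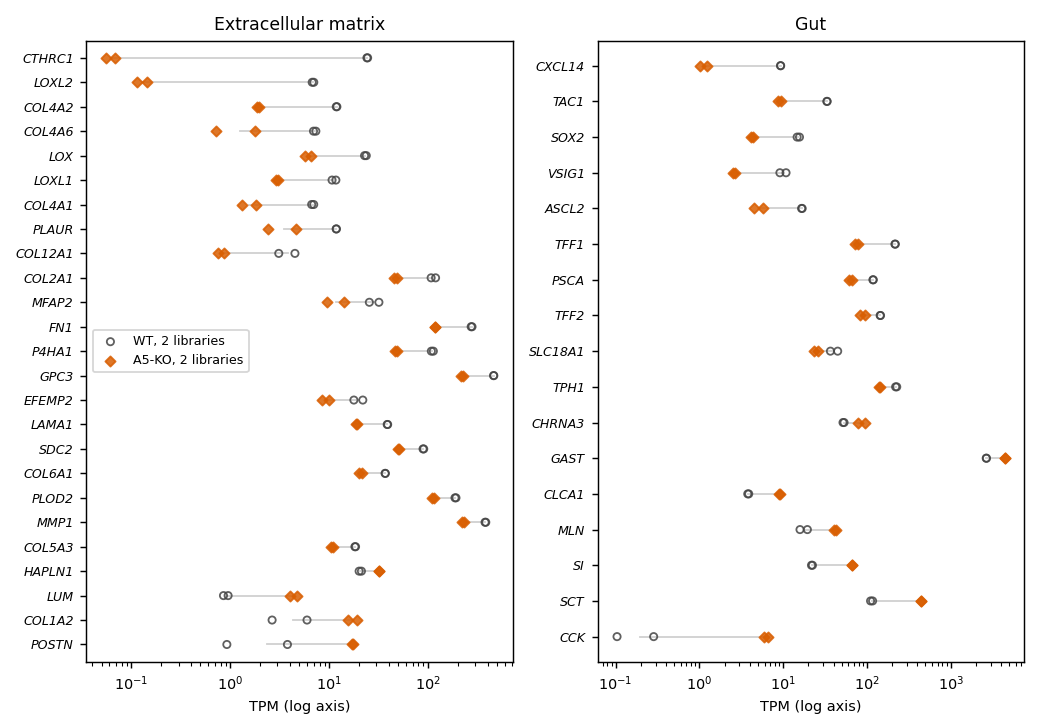
TPM on a log axis in each hILO library for called extracellular matrix genes (left, 25 genes drawn) and the called gut genes (right, 17 genes), ordered by log2 fold change, with open circles for WT and filled diamonds for A5-KO. Matrix genes lower in A5-KO fill most of the left panel, and *SCT*, *GAST* and *MLN* lie higher in A5-KO at the foot of the right one.

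Apart from the hormone genes, which its lists leave out, the secretory programme changed in single genes more than as a whole. Of 95 tested genes 9 fell (9.47%, against 4.09% of all genes) and 2 rose (2.11%, against 2.7%). Between 8 and 9 fell and between 5 and 6 rose when the libraries were scaled by median-of-ratios, to the same total, without the 20 most abundant genes, or by quantiles. With a library left out, 0 to 5 fell and 1 to 2 rose. The granule cargo and processing list summed to between 23459 and 25856 TPM in WT against 24883 and 23446 TPM in A5-KO, most of it *CHGA*, which was at 18470.4 and 20798 TPM in WT against 18215 and 17011 TPM in A5-KO and was not called. That sum does not hold *INS*, *GCG*, *SST* and *PPY*, which were called lower in A5-KO. *INS* alone was at 13033 and 12978 TPM in WT against 7605 and 7606 TPM in A5-KO. *SCG2* (chromosome 2, 223596940 to 223602361, minus strand), the granin secretogranin II, was at 1256 and 1279 TPM in WT against 2382 and 2354 TPM in A5-KO (log2 fold change 0.90, SE 0.03, adjusted p = 0.0021) and kept its call in all 14 alternative fits. *CPE*, the carboxypeptidase that trims prohormones, was at 971 and 963 TPM in WT against 1114 and 1073 TPM in A5-KO. *PAM*, the enzyme that amidates peptide ends, was at 53.4 and 93.1 TPM in WT against 13.6 and 18.9 TPM in A5-KO (log2 fold change -2.07, SE 0.32, adjusted p = 0.029), and the WT libraries differed 1.75-fold. *VGF*, a granin-like neuropeptide precursor, and *PTPRN*, the granule membrane protein IA-2, fell 1.69-fold and 1.61-fold. *PAM*, *VGF* and *PTPRN* lost their call with any 1 of the 4 libraries left out.

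Of 24 tested exocytosis genes 3 fell (12.5%, against 4.09% of all genes) and none rose. *RAB3A*, *DOC2B* and *SYT5* encode a vesicle GTPase and calcium sensors of release, and all were below 15 TPM in WT. All 3 lost their call with any 1 library left out. The most abundant members, *SYT13*, *SYP* and *STX1A*, were not called. *SYP*, the vesicle protein synaptophysin, was at 119 and 119 TPM in WT against 127 and 126 TPM in A5-KO. Of 18 tested genes of glucose sensing and channels 2 fell (11.1%, against 4.09% of all genes) and 1 rose (5.56%, against 2.7%). *GNAS*, the stimulatory G protein subunit that links incretin receptors to cyclic AMP, was at 1636 and 1587 TPM in WT against 774 and 693 TPM in A5-KO (log2 fold change -1.14, SE 0.06, adjusted p = 0.0044), and it lost the call when WT replicate 2 was left out. *SLC2A1*, the glucose transporter GLUT1, was at 291 and 288 TPM in WT against 187 and 184 TPM in A5-KO (log2 fold change -0.64, SE 0.03, adjusted p = 0.0042). Its change fell under the limit of 1.5-fold with median-of-ratios scaling and without the 20 most abundant genes. *SLC2A1* also lost the call when WT replicate 2 was left out. *ADRA2A*, the adrenergic receptor that restrains insulin release, was at 11.3 and 11.1 TPM in WT against 20.1 and 19.9 TPM in A5-KO (log2 fold change 0.78, SE 0.08, adjusted p = 0.014). It lost the call with any 1 library left out. The channel subunits *ABCC8* and *KCNJ11* were at 56.4 and 58.9 TPM in WT against 70.98 and 69.2 TPM in A5-KO and at 46.5 and 43.5 TPM in WT against 47.6 and 45.7 TPM in A5-KO, neither of them called. Of 34 genes of protein folding in the endoplasmic reticulum 1 was called lower (2.94%, below the 4.09% of all genes). This was *PDIA4*, a disulfide isomerase, at 233 and 239 TPM in WT against 152 and 146 TPM in A5-KO (log2 fold change -0.66, SE 0.04, adjusted p = 0.0057).

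Endocrine transcription factors moved both ways. Of 25 tested 4 (16%, against 4.09% of all genes) were lower and 2 (8%, against 2.7%) higher. All of these but *NEUROD1* lost their call with any 1 library left out. *NEUROD1*, a factor of all islet endocrine cells, was at 208 and 209 TPM in WT against 352 and 349.9 TPM in A5-KO (log2 fold change 0.75, SE 0.03, adjusted p = 0.0028). *PAX4*, a factor of beta and delta cell precursors, was at 54.8 and 53.6 TPM in WT against 83.6 and 80.9 TPM in A5-KO (log2 fold change 0.59, SE 0.05, adjusted p = 0.0091). *NEUROG3*, which starts endocrine differentiation and is then switched off, was at 2.38 and 2.44 TPM in WT against 0.586 and 0.747 TPM in A5-KO (log2 fold change -1.04, SE 0.20, adjusted p = 0.045). *IRX1* and *IRX2*, homeobox factors of alpha cells, fell 2.45-fold and 2.33-fold, and *HES1*, the Notch target, 1.73-fold. *NEUROD1* kept its call in all 14 alternative fits, whereas *PAX4*, *IRX2* and *HES1* lost theirs with any 1 library left out. Of 16 tested duct genes *SPP1* fell (6.25%, against 4.09% of all genes). Of 11 tested acinar genes *GP2* fell (9.09%) and *CEL* and *CLPS* rose (18.2%, against 2.7% of all genes). Each was at most 11 TPM in the higher genotype. *KRT19*, a keratin of duct and gut epithelium, was at 629 and 617 TPM in WT against 913 and 872 TPM in A5-KO without a call. *SPINK1*, a trypsin inhibitor, was at 547 and 202 TPM in WT against 552 and 212 TPM in A5-KO, so that the replicates differed by more than the genotypes.

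Of 90 tested neuronal genes 16 were lower (17.8%, against 4.09% of all genes). Another 4, *NEFM*, *NEFL*, *GAP43* and *PHOX2A*, were higher (4.44%, against 2.7%). Of 22 tested genes of the neuronal cytoskeleton and RNA binding 5 fell (22.7%, against 4.09% of all genes) and 3 rose (13.6%, against 2.7%). The neurofilament genes *NEFM* (chromosome 8, 24913758 to 24919098, plus strand) and *NEFL* were at 216 and 216 TPM in WT against 476 and 463 TPM in A5-KO (log2 fold change 1.12, SE 0.03, adjusted p = 0.0021) and at 50.8 and 50.00 TPM in WT against 106 and 102 TPM in A5-KO (log2 fold change 1.03, SE 0.05, adjusted p = 0.0036), and both kept their call in all 14 alternative fits. *GAP43*, a protein of growing axons, was at 11.5 and 9.47 TPM in WT against 20.9 and 18.9 TPM in A5-KO (log2 fold change 0.87, SE 0.13, adjusted p = 0.028) and lost its call with any 1 library left out. A related intermediate filament gene, *INA*, was lower instead, at 39.1 and 40.3 TPM in WT against 14.5 and 13.9 TPM in A5-KO (log2 fold change -1.42, SE 0.07, adjusted p = 0.0036). The tubulin genes *TUBA1A* and *TUBB3* fell 1.63-fold and 1.61-fold, and *STMN4*, a regulator of microtubules, 15.6-fold from a level below 10 TPM. Without WT replicate 1, WT replicate 2, A5-KO replicate 1 or A5-KO replicate 2, 1, 0, 3 and 4 genes of this list were called lower. The intermediate filament genes of neurons thus moved in both directions.

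Of 22 tested synapse and adhesion genes 5 (22.7%, against 4.09% of all genes) fell and none rose: *NLGN1*, *NLGN2*, *CNTNAP2*, *CADM1* and *CDH12*. *CDH12*, a cadherin, was at 21.04 and 23.8 TPM in WT against 9.901 and 8.85 TPM in A5-KO (log2 fold change -1.17, SE 0.11, adjusted p = 0.012), and *CADM1*, an adhesion molecule of synapses and islet cells, at 20.1 and 18.3 TPM in WT against 8.62 and 10.6 TPM in A5-KO (log2 fold change -0.93, SE 0.13, adjusted p = 0.025). Of 25 tested axon guidance genes 4 (16%, against 4.09% of all genes) fell and none rose. *EPHB2*, a receptor for ephrins, was at 10.6 and 10.3 TPM in WT against 0.332 and 0.302 TPM in A5-KO (log2 fold change -3.12, SE 0.16, adjusted p = 0.0036), and the ephrin gene *EFNB3* at 13.3 and 13.5 TPM in WT against 5.84 and 5.78 TPM in A5-KO (log2 fold change -1.08, SE 0.10, adjusted p = 0.011). *NRP2* and *SEMA3E*, a semaphorin receptor and a semaphorin, fell from levels below 4 TPM in WT. Of 14 tested neurotransmitter genes 1 was called, lower in A5-KO (7.14%, against 4.09% of all genes). This was *TH*, the enzyme that starts dopamine synthesis, at 6.47 and 7.73 TPM in WT against 0.987 and 0.637 TPM in A5-KO (log2 fold change -2.16, SE 0.20, adjusted p = 0.011). *GAD2*, the enzyme that makes GABA in neurons and beta cells, was at 32.7 and 31.2 TPM in WT against 37.8 and 37.7 TPM in A5-KO without a call. *PHOX2A*, a factor of autonomic neurons, was at 9.68 and 8.53 TPM in WT against 25.6 and 27.2 TPM in A5-KO (log2 fold change 1.44, SE 0.10, adjusted p = 0.0069), whereas the crest and glial marker SOX10 was below 0.2 TPM. The synapse and adhesion calls were all lost with any 1 library left out, as were those of *TH*, *EFNB3*, *NRP2* and *SEMA3E*. *EPHB2* lost its call without WT replicate 2, and *PHOX2A* kept its call only without WT replicate 1 among these 4 fits.

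Genes of the cell cycle were lower in A5-KO hILOs. Of 25 tested proliferation genes 15 (60%, against 4.09% of all genes) fell and none rose. All 25 had a negative log2 fold change, and the groups did not overlap for 24. For comparison, 10017 of the 17300 tested genes had a negative change, 6426 of them without overlap between genotypes. The list summed to 612 and 616 TPM in WT against 382 and 383 TPM in A5-KO. *TOP2A* (chromosome 17, 40388525 to 40417896, minus strand), the topoisomerase of dividing cells, was at 29.6 and 31.3 TPM in WT against 14.6 and 15.1 TPM in A5-KO (log2 fold change -0.99, SE 0.08, adjusted p = 0.008). *CDK1*, the kinase that drives mitosis, was at 17.04 and 15.2 TPM in WT against 7.19 and 6.82 TPM in A5-KO (log2 fold change -1.09, SE 0.11, adjusted p = 0.013), and *CCNB1*, its cyclin, at 51.1 and 51.8 TPM in WT against 30.7 and 31.1 TPM in A5-KO (log2 fold change -0.72, SE 0.06, adjusted p = 0.008). *MCM2*, *MCM4*, *MCM5* and *MCM6*, subunits of the replicative helicase, fell by 1.53 to 1.95-fold. *MKI67*, the proliferation marker Ki-67, was at 2.901 and 2.75 TPM in WT against 1.41 and 1.75 TPM in A5-KO without a call. With any 1 library left out none of the 15 genes was called by limma at an adjusted p below 0.05, and in the fit with a replicate block 7 were, although all 15 had an unadjusted p below 0.05 in each of the 4 fits with a library left out.

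Of 29 tested genes of the interferon and NF-kB responses 2 fell (6.9%, against 4.09% of all genes) and none rose. They were the chemokine genes *CXCL1* and *CXCL8*. *CXCL1* was at 32.6 and 34.5 TPM in WT against 5.82 and 7.87 TPM in A5-KO (log2 fold change -2.15, SE 0.16, adjusted p = 0.007). *CXCL8* was at 70.6 and 79.2 TPM in WT against 32.5 and 37.02 TPM in A5-KO (log2 fold change -1.08, SE 0.10, adjusted p = 0.01). The chemokine genes *CXCL2* and *CXCL10* had log2 fold changes of 0.03 and 0.24 without a call. *CXCL8* lost its call with any 1 library left out and *CXCL1* without either WT library, and both lost it without a filter on low values. *B2M*, the light chain of class I molecules, was at 1321 and 1294 TPM in WT against 1601 and 1553 TPM in A5-KO. Among the 20 genes of the m6A machinery 1 was called, lower in A5-KO (5%, near the 4.09% of all genes). This was *IGF2BP3*, a reader of the mark, at 25.98 and 30.98 TPM in WT against 17.7 and 19.1 TPM in A5-KO (log2 fold change -0.60, SE 0.11, adjusted p = 0.046). It lost the call in 11 of 14 alternative fits.

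Beyond the lists, the genes with the largest falls included ligands of the tumour necrosis factor family and a pair of neighbouring membrane proteins. *TMEM176B*, a channel-like protein next to *TMEM176A* on chromosome 7, was at 81.7 and 87.9 TPM in WT against 0.746 and 1.54 TPM in A5-KO (log2 fold change -5.35, SE 0.21, adjusted p = 0.0026). *CD70*, a ligand of that family, was at 15.3 and 12.7 TPM in WT against 0 and 0.0488 TPM in A5-KO, and its family member and neighbour on chromosome 19, *TNFSF9*, at 53.2 and 55.9 TPM in WT against 0 and 0.0575 TPM in A5-KO. Both ligands were listed at 0 in A5-KO replicate 1. *PLCL1*, an inositol phosphate-binding protein, was at 12.9 and 14.2 TPM in WT against 0.378 and 1.24 TPM in A5-KO (log2 fold change -3.05, SE 0.28, adjusted p = 0.011). *TMEM176A*, *TMEM176B*, *CD70* and *TNFSF9* kept their call in all 14 alternative fits. Among the largest rises, *FST*, encoding follistatin, an antagonist of activin, was at 2.06 and 2.97 TPM in WT against 16.6 and 16.3 TPM in A5-KO (log2 fold change 2.32, SE 0.17, adjusted p = 0.0075). *NUDT4*, which hydrolyses inositol pyrophosphates, was at 9.73 and 11.7 TPM in WT against 68.5 and 59.7 TPM in A5-KO (log2 fold change 2.48, SE 0.12, adjusted p = 0.0036), and 24.5% of its exon bases are shared with other genes. *STRIT1*, a micropeptide that regulates the calcium pump of the endoplasmic reticulum, was at 2.12 and 1.41 TPM in WT against 15.2 and 13.7 TPM in A5-KO (log2 fold change 2.49, SE 0.18, adjusted p = 0.0075), *TCEAL2* at 11.02 and 8.51 TPM in WT against 51.9 and 50.4 TPM in A5-KO (log2 fold change 2.29, SE 0.13, adjusted p = 0.0053) and *AP1M2*, an adaptor of epithelial sorting, at 1.59 and 1.51 TPM in WT against 12.7 and 9.77 TPM in A5-KO (log2 fold change 2.25, SE 0.18, adjusted p = 0.0083). *SNORA48*, at 2.54 and 1.91 TPM in WT against 41.7 and 20.4 TPM in A5-KO, is a small RNA that lies wholly within exons of *EIF4A1*, and its value cannot be separated from that gene.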

How the data were processed

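RNA-seq of 2 WT and 2 A5-KO hILO libraries was analysed; the libraries of pancreatic progenitors were not used here. The hILO reads were paired; the authors used fastp for trimming and HISAT2 for alignment to GRCh38 (version 2.1.0 in the submitters' processing notes), quantified transcripts with StringTie and deposited TPM for each gene (60624 Ensembl identifiers, 60370 with a symbol in the reference). Whether counting used strand is not given in the sources used here. TPM keeps no trace of read number, so depth is unknown and counting error cannot be given; precision is set by the spread between 2 libraries.

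A5-KO was set against WT in limma 3.58.1 under R 4.3.3, fitting log2 of TPM with a pseudocount of 1 and a mean-variance trend in eBayes. The 17300 genes that averaged 1 TPM or more were tested. limma was used because DESeq2, which the authors used, needs read counts. Calls needed more than a 1.5-fold change and, after Benjamini-Hochberg adjustment over all tested genes, p under 0.05. "Rose" and "fell" refer to called genes, log2 fold changes include the pseudocount and so understate the change of genes with low values, and folds in words are ratios of mean TPM. SE is the standard error of limma. The code was tested on simulated data.

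The 1045 list genes (1044 matched) form 38 lists. The members and lists were chosen with earlier results of these data known. No set test was run: lists are described by counts and medians beside those of all genes. The genes named are *ALKBH5*, in each list up to 3 called genes in each direction with the largest change among those without overlap between genotypes that averaged 10 TPM or more in 1 genotype, the 3 most abundant members, and over all genes up to 10 in each direction, which gave 203 genes. Others, named to describe a list, were chosen after their values were seen. Some list genes enter the counts but are not reported here by name or drawn in the plots of levels. Coordinates and exon overlaps come from GENCODE for GRCh38, and promoters from RefSeq (GRCh38.p14).

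The alternatives were a pseudocount of 0.1, no filter, a mean of at least 5 TPM, 4 scalings, robust eBayes, eBayes without a trend, the replicate number as a block, no limit on the change, an unadjusted p, and each library left out in turn.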

Additional observations from a re-analysis of the deposited data

How the results depend on the processing

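With 1 library left out, counts of called genes ranged from 72 to 203 lower and 71 to 100 higher over all genes. By programme they ranged from 0 to 5 lower and 1 to 2 higher for secretory genes, 6 to 15 and 0 to 1 for matrix, 4 to 7 and 12 to 13 for liver, 1 to 8 and 3 to 4 for gut, 0 to 5 and 2 to 3 for neuronal, and 16 to 24 and 0 to 2 for metabolic genes. The cause was not tested beyond the fewer samples. Without a filter, 35056 genes were tested and 187 were lower and 143 higher; counts fell to 3 lower secretory, 1 higher matrix, 8 lower and 18 higher liver, 6 lower and 3 higher gut, 5 lower neuronal and 1 higher metabolic genes. Higher secretory genes numbered 6 with median-of-ratios scaling, 5 with the same total, 5 without the 20 most abundant genes and 5 with quantiles, and higher metabolic genes 5 with median-of-ratios scaling and 5 without the 20 most abundant genes. Higher matrix genes numbered 3 with a pseudocount of 0.1, and higher metabolic genes 1 with eBayes without a trend. With no limit on the change, 1266 genes were lower and 912 higher, among them 21 lower and 9 higher secretory, 8 higher matrix, 23 higher gut and 19 higher metabolic genes; with an unadjusted p, 1272 and 801, among them 4 higher secretory, 8 higher matrix and 7 higher metabolic genes. The cause of these moves was not tested. Counts over all genes and over the 6 programmes that are not given here stayed within 1.5 times.

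The fit with a replicate block called 385 genes lower and 289 higher, with 3 higher matrix and 9 lower neuronal genes. Deviations of WT replicate 1 and A5-KO replicate 1 from the mean of their genotype had a correlation of -0.0053. With 2 libraries per genotype the other pair mirrors this one, so shared handling of same-numbered libraries cannot be judged from it.

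No called gene named here changed direction. Of the genes not called, the log2 fold change became positive for *P4HB* (0.038, 0.023, 0.033 and 0.13), *APOA1* (0.061, 0.046, 0.056 and 0.13) and *CREB3L3* (0.051, 0.036, 0.046 and 0.024) with median-of-ratios, same-total, rescaled and quantile scaling, for *MMP14* (0.020, 0.0049 and 0.015) and *FADS2* (0.022, 0.0068 and 0.017) with the first 3 of these, for *SLC3A2* (0.012 and 0.0070) with median-of-ratios and rescaled values, and for *DDC* (0.0015) with quantiles. With a library left out, ranges of genes that changed sign were -0.072 to 0.018 for *P4HB*, -0.041 to 0.033 for *APOA1*, -0.10 to 0.075 for *CREB3L3*, -0.68 to 0.76 for *SPINK1*, -0.32 to 0.41 for *CDH2*, -0.15 to 0.16 for *GRIA4*, -0.011 to 0.051 for *MDH1*, -0.018 to 0.051 for *COX7C*, -0.014 to 0.024 for *ATP5F1B*, -0.16 to 0.56 for *FDPS* and -0.33 to 0.081 for *CLDN5*. TPM without counts limits what can be said of genes near 0.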
